A study of Codonopsis pilosula with 12 samples.

Results

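The response described here is that of leaves of Codonopsis pilosula cultivar G1 (Gandang No. 1) to 4 days without water, measured by RNA sequencing in 3 drought libraries (DG1) and 3 libraries taken on day 0, the day watering stopped (CG1). These are 6 of the 12 libraries of the series, and the other 6 are the same pair of groups in cultivar W1 (Weidang No. 1, DW1 and CW1). The plants of all groups were seedlings about 4 weeks old, grown in pots of soil outdoors under a rain shelter. Because every watered library came from day 0 and every drought library from day 4, the effect of drought and that of the 4 days between the samplings cannot be told apart. The labels describe each sample as a mix of 2 pots and the study's methods describe 1 pot per replicate, so the p-values rest on the scatter among these libraries, part of which may be technical. One label conflict lies outside G1: the first CW1 library carries a drought entry in its treatment label, although its title places it with the watered plants.

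The genes were rows of an assembled transcriptome, named after their best hit in the SwissProt protein collection. Of 55270 assembled genes, 14350 had a best hit in a land plant and 36278 had no hit. A further 4642 had a best hit in another kind of organism and were left out, which left 50628. Homo sapiens was the species of 2549 of these 4642 hits, and a best hit alone does not give the organism that the RNA came from. The names are those of the closest protein in another species, and related genes, above all those of 1 assembly cluster (identifiers that share all but the last part, g1, g2 and so on), can share reads. After a filter on low counts, 27132 of the kept genes were tested, 12823 of them with a land plant hit. In leaves that lose water, the hormone abscisic acid (ABA) accumulates, binds receptors of the PYR/PYL family and stops protein phosphatases 2C from holding back SnRK2 kinases, which then activate transcription factors of the ABF group. The pathway closes stomata and turns on genes for sugars, protective proteins and antioxidant enzymes. Growth, protein synthesis and chlorophyll synthesis are costly and usually slow in drying leaves.

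The 6 libraries held between 15229565 and 20400689 assigned reads. DG1 replicate 1 stood apart: 9.2% of its summed TPM (a level scaled for gene length and library total) fell on the left-out rows, against 3.76% and 3.87% in the other DG1 libraries and 3.55% to 4.82% in CG1. Its log2 TPM over genes correlated at r = 0.889 and 0.905 with the other DG1 libraries, which correlated at 0.974 with each other. The markers of leaf mesophyll (33 genes for light capture and carbon fixation, none at 0) summed to 15602 TPM in DG1 replicate 1 and to 105986 and 84294 TPM in the other DG1 libraries, against 73046 to 142130 TPM in CG1. CG1 replicate 1 also stood apart, with r = 0.904 and 0.919 to the other CG1 libraries, which correlated at 0.97. Of 12823 tested genes with a land plant hit, 8582 (66.9%) had their highest CG1 level in CG1 replicate 1.

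A gene was called where its adjusted p fell under 0.05 in edgeR's quasi-likelihood test, and only called genes are said to have risen or fallen in DG1. Of the tested genes with a land plant hit, 1665 (13.0%) rose and 2258 (17.6%) fell, 30.6% in all. A change of 4-fold or more was found in 408 of the rising (3.18% of all tested) and 828 of the falling genes (6.46%), 9.64% in all. Over all 27132 kept genes, 6254 (23.1%) were called, and 2315 (8.53%) changed 4-fold or more, 3.55% upwards and 4.99% downwards. Of the 1665 that rose, 1467 (88.1%) had 3 DG1 levels that did not overlap the 3 CG1 levels, as did 2144 (95.0%) of the 2258 that fell. Genes were called on these same levels, so the choice favours separation, and the share over all tested genes was not counted. Separation of single genes named below is likewise a description only, and for some it was part of the rule for naming them. Without DG1 replicate 1, 1127 (8.61%) rose and 1693 (12.9%) fell, 21.6% in all, including 1067 of the 1665 and 1573 of the 2258. The number that rose was 1089 without CG1 replicate 2 and 874 without CG1 replicate 3, and the falling count was 1340 without DG1 replicate 3. In a bulk leaf sample, fewer cells of a type and less RNA per cell cannot be told apart.

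The gene lists below are read against these shares of 13.0% rising and 17.6% falling. Autophagy genes, glutathione S-transferases and ethylene genes had the highest shares rising among the lists plotted, and cytosolic ribosomal proteins, histones, and kinesins and tubulins the highest shares falling.

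**Figure D1:**
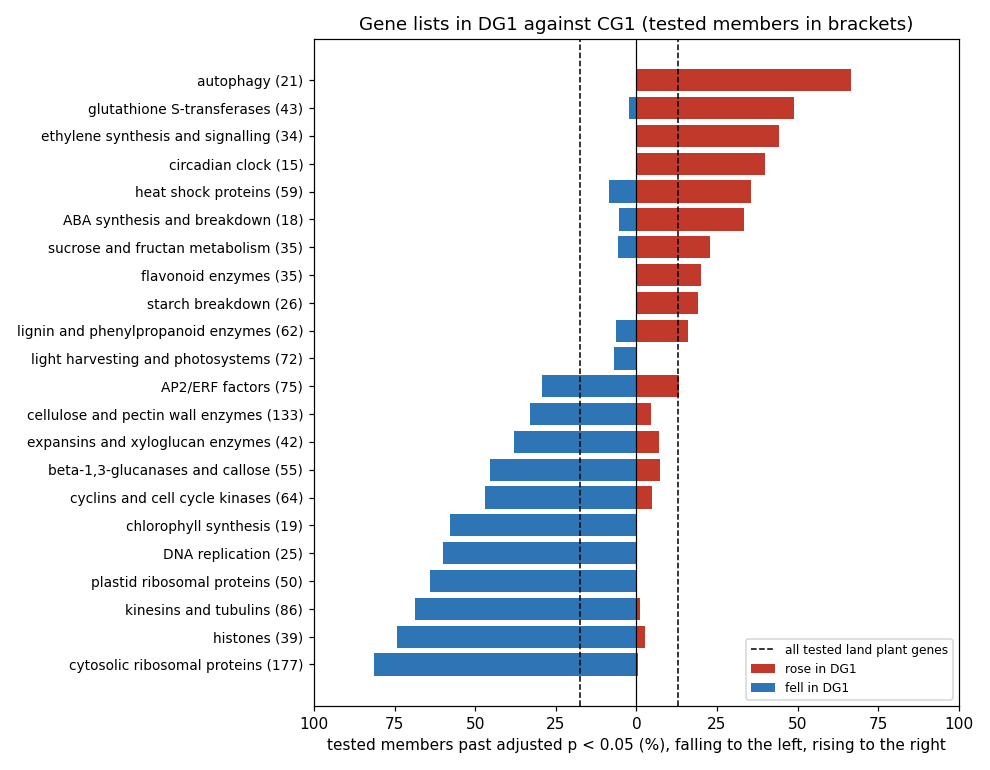
Share of the tested members of 22 gene lists that rose (right) or fell (left) in DG1 against CG1, in percent, with dashed lines at the shares over all tested land plant genes (13.0% and 17.6%). Autophagy leads on the rising side with 66.7% and cytosolic ribosomal proteins on the falling side with 81.4%.

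The ABA pathway was represented at every step, and its members did not all move the same way. XERICO (DN20014_c0_g1), a RING-type ubiquitin ligase that in Arabidopsis promotes ABA accumulation, had 231, 241 and 302 TPM in the DG1 libraries, against 24.9, 14.6 and 14.5 TPM in the CG1 libraries. Every DG1 level lay above every CG1 level, and the log2 fold change was 3.90 ± 0.27 (SE, adjusted p = 0.000266). Among the genes of ABA synthesis and breakdown, 6 of 18 tested rose and 1 fell. The 6 became 3 without DG1 replicate 2, CG1 replicate 1 or CG1 replicate 2, and 2 without CG1 replicate 3. Molybdenum cofactor sulfurase (FLACCA, DN20679_c0_g1), which activates the last oxidase of ABA synthesis, averaged 39.8 ± 1.32 TPM in DG1 and 22.4 ± 3.79 TPM in CG1 (SD, n = 3 each; log2 fold change 0.69 ± 0.16, adjusted p = 0.011 by edgeR). Xanthoxin dehydrogenase (ABA2, DN13541_c0_g9; 37.1 TPM in DG1 and 18.8 TPM in CG1) and the ABA-degrading 8'-hydroxylase CYP707A2 (DN17264_c0_g3; 29.1 TPM in DG1 and 8.35 TPM in CG1) rose as well, but each call was lost when any of 5 libraries was left out.

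Of 8 ABA receptor genes, 2 rose and 2 fell, with all libraries and without any one of the 6 from G1. PYL9 (DN15855_c0_g2) had 174, 241 and 259 TPM in DG1, against 82.5, 27.4 and 29.9 TPM in CG1, a log2 fold change of 2.28 ± 0.35 (adjusted p = 0.00248). PYL4 (DN14705_c0_g7) had 7.94, 4.81 and 6.11 TPM in DG1, against 20.7, 23.97 and 31.6 TPM in CG1, a log2 fold change of -2.03 ± 0.31 (adjusted p = 0.0025). The receptors thus moved in opposite directions, with no overlap between the groups in either gene. PYL11 (DN21356_c0_g6) rose from a low level, with a mean of 16.4 ± 9.17 TPM in DG1 and 2.55 ± 1.12 TPM in CG1 (SD). PYL8 (DN15855_c0_g3) fell to 22.0 ± 0.91 TPM in DG1, against 42.7 ± 6.01 TPM in CG1, and belongs to the same assembly cluster as PYL9. The summed level of the 8 receptors was 278 to 367 TPM in DG1 and 161 to 223 TPM in CG1, so the total was higher although the median member had a log2 fold change of -0.30.

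Clade A protein phosphatases 2C, which the hormone-bound receptors inhibit, mostly rose: 3 of 4 listed genes, among them PP2CA (DN16290_c0_g3), with 213, 159 and 142 TPM in DG1 and 29.6, 68.1 and 48.6 TPM in CG1, and HAB1 (DN15695_c1_g1), with a log2 fold change of 1.38 ± 0.20. A further member of that clade outside the list's wording, protein phosphatase 2C 24 (DN14062_c0_g4), had 192, 216 and 227 TPM in DG1 libraries, against 16.8, 9.46 and 5.51 TPM in CG1 libraries. The groups lay far apart, with a log2 fold change of 4.39 ± 0.39 (adjusted p = 0.000624). Of the SnRK2 kinases, the targets of these phosphatases, 3 of 8 rose, but 1 was left when any of DG1 replicates 1 and 2, CG1 replicates 1 and 3 or the 3 CW1 libraries was dropped. The one named for rice SAPK10 (DN16475_c0_g2) kept its call throughout, at 70.9 ± 8.06 TPM in DG1 and 41.9 ± 5.20 TPM in CG1. Downstream, ABF4 (DN19537_c1_g1; log2 fold change 1.07 ± 0.17) and ABF2 (DN18961_c0_g2; 1.89 ± 0.37) rose, and the other 2 factors of their list did not pass the test.

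Homeodomain-leucine zipper factors, a plant family with several ABA-responsive members in Arabidopsis, had 5 of 36 rising (13.9%) and 7 falling (19.4%), close to the shares over all genes. ATHB-54 (DN13472_c1_g2) had 70.7, 62.0 and 64.5 TPM in DG1, against 7.44, 4.73 and 4.13 TPM in CG1, with no overlap and a log2 fold change of 3.63 ± 0.35 (adjusted p = 0.000624). HOX16 (DN15010_c0_g2) rose to 166 ± 18.9 TPM in DG1, against 63.0 ± 29.6 TPM in CG1. The name ATHB-6 fell on 2 assembled genes that moved in opposite directions: DN21226_c0_g1 averaged 130 TPM in DG1 and 56.6 TPM in CG1, and DN20833_c0_g2 averaged 5.89 TPM in DG1 and 24.5 TPM in CG1. Both kept their call whichever library was left out.

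**Figure D2:**
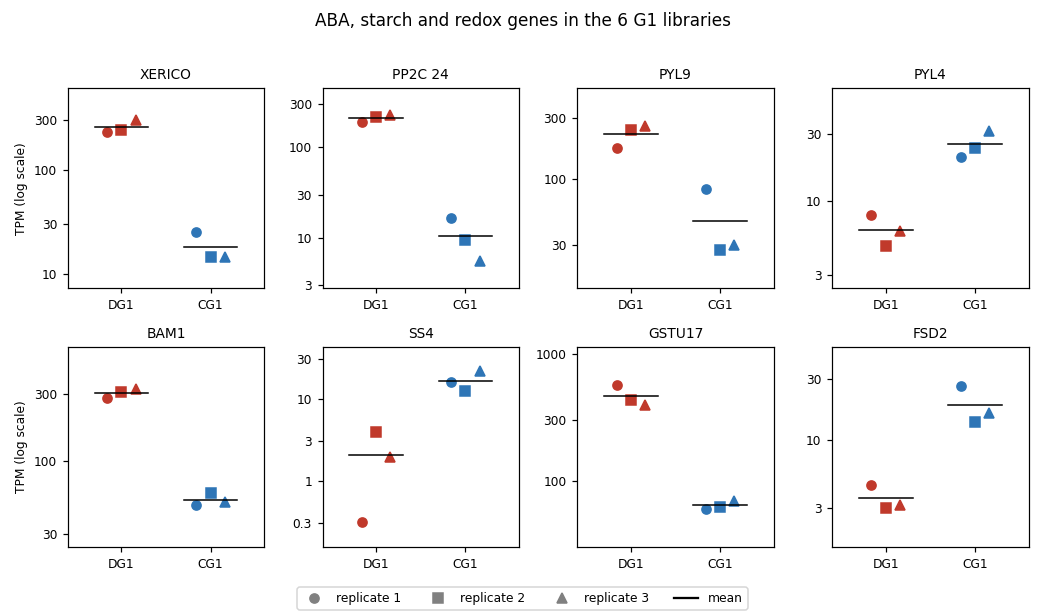
Level of 8 genes in each of the 6 G1 libraries, in TPM on a log scale, with DG1 (red) left of CG1 (blue), 1 symbol per replicate and a line at the mean. In all 8 genes the DG1 libraries lie wholly above or wholly below the CG1 libraries, for XERICO at 231 TPM or more against 24.9 TPM or less. The genes were taken from called ones, some by a rule that required this separation.

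Sugar genes moved in several parts of the pathway. BAM1 (DN14349_c0_g4), a beta-amylase that degrades starch in the chloroplast, had 280, 309 and 327 TPM in DG1 libraries, against 48.4, 59.1 and 51.0 TPM in CG1 libraries. The 3 drought levels were close together and far above the watered ones (log2 fold change 2.52 ± 0.39, adjusted p = 0.00252). Starch synthase 4 (SS4, DN16219_c0_g1), which in Arabidopsis starts new starch granules, went the other way, with 0.31, 3.96 and 1.96 TPM in DG1, against 15.7, 12.4 and 21.4 TPM in CG1 (log2 fold change -3.29 ± 0.55, adjusted p = 0.00331). An alpha-amylase (AMY2, DN19485_c0_g2) rose to 29.0 ± 5.87 TPM in DG1, against 10.7 ± 2.87 TPM in CG1. Over the whole starch breakdown list 5 of 26 rose and none fell, and the median log2 fold change was 0.15. The 5 became 2 without CG1 replicate 3, and 3 without DG1 replicate 2 or 3, CG1 replicate 1 or 2, DW1 replicate 2 or any CW1 library. The starch synthesis list did not fall as SS4 did: of its 15 tested genes 3 rose (20.0%) and 1 fell (6.67%). The 3 became 1 without DG1 replicate 2 or 3 or CG1 replicate 2 or 3.

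Of 35 tested genes of sucrose and fructan metabolism, 8 rose and 2 fell. Sucrose synthase 2 (SUS2, DN18770_c2_g1), which splits or makes sucrose, had 69.4, 124 and 172 TPM in DG1, against 26.4, 19.5 and 21.0 TPM in CG1 (log2 fold change 2.49 ± 0.36, adjusted p = 0.00197). CWINV3 (DN21169_c1_g3), named for an enzyme of the cell wall invertase family that in Arabidopsis degrades fructans, had 108, 76.9 and 72.4 TPM in DG1, against 8.95, 11.1 and 16.4 TPM in CG1. Neither gene's groups overlapped. A pair of genes for sucrose-phosphate synthase 4, the enzyme that starts sucrose synthesis, rose by log2 values of 1.89 ± 0.45 (DN20176_c0_g3) and 1.65 ± 0.33 (DN21169_c1_g4), and the second shares an assembly cluster with CWINV3. The neutral invertase CINV2 (DN16565_c1_g1), which cleaves sucrose in the cytosol, fell to 10.1 ± 3.06 TPM in DG1, against 23.2 ± 2.01 TPM in CG1.

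The genes of raffinose and trehalose metabolism included 6 of 24 that rose and 1 that fell, and the 6 became 2 without CG1 replicate 2 or 3. Galactinol synthase 2 (GOLS2, DN17550_c0_g4), which makes the donor for raffinose sugars, had 84.9, 37.5 and 33.4 TPM in DG1, against 5.59, 5.85 and 3.36 TPM in CG1 (log2 fold change of 3.37 ± 0.64, adjusted p = 0.0053). The raffinose synthase gene RFS1 (DN16759_c0_g4) fell to 0.17, 1.11 and 0.35 TPM in DG1, against 22.4, 7.23 and 6.36 TPM in CG1. Of 39 tested sugar transporters 7 rose (17.9%) and 3 fell (7.69%). With a G1 library left out, 3 to 5 of these transporters rose and 1 to 3 fell. The hexose transporter STP13 (DN14560_c0_g1) had 211, 49.6 and 51.9 TPM in DG1, against 12.5, 8.18 and 5.04 TPM in CG1, so that DG1 replicate 1 alone set much of its mean. Without that library its log2 fold change was 2.70, against 3.71 with it, and the call held (adjusted p = 0.0041). TPS5 (DN18932_c0_g2), a trehalose-phosphate synthase homologue, rose by a log2 value of 1.61 ± 0.19.

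Glutathione S-transferases, which join glutathione to toxic compounds and peroxides, were among the lists with the largest shares rising: 21 of 43 rose and 1 fell, with a median log2 fold change of 1.40. The 21 became 13 without DG1 replicate 1 and 11 without CG1 replicate 3. GSTU17 (DN13342_c0_g1) had 568, 431 and 398 TPM in DG1, against 60.6, 62.6 and 69.5 TPM in CG1 (log2 fold change 2.79 ± 0.34, adjusted p = 0.00116). A second gene of that name, DN17746_c2_g5, had 45.4, 9.04 and 15.1 TPM in DG1, against 5.07, 4.85 and 2.74 TPM in CG1, and its call was lost without DG1 replicate 1 (adjusted p = 0.0593) or CG1 replicate 3. The gene annotated PRP1 (DN20437_c0_g2), another glutathione S-transferase, had 135, 76.2 and 99.6 TPM in DG1, against 7.41, 7.44 and 13.5 TPM in CG1, and kept its call in every fit with a library left out.

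The list of superoxide dismutases, catalases and ascorbate enzymes had 5 of 36 rising (13.9%), close to the share over all genes, and 4 falling (11.1%), below it. The rising count was 3 without CG1 replicate 2, and the falling count was 2 without DG1 replicate 3, CG1 replicate 2 or CG1 replicate 3. Monodehydroascorbate reductase (DN14022_c0_g1), which regenerates ascorbate, had 1173, 355 and 340 TPM in DG1, against 164, 183 and 119 TPM in CG1. A phospholipid hydroperoxide glutathione peroxidase (DN15980_c0_g3), an enzyme that reduces lipid peroxides, had 860, 294 and 279 TPM in DG1, against 84.1, 116 and 90.1 TPM in CG1. In both genes DG1 replicate 1 was the highest library by far, and without it the log2 fold change was 1.11 for the reductase (1.72 with it) and 1.56 for the peroxidase (2.27 with it). The plastid iron superoxide dismutases fell instead: FSD2 (DN16824_c0_g1) had 4.47, 2.97 and 3.15 TPM in DG1, against 26.4, 13.8 and 16.4 TPM in CG1, and FSD3 (DN18702_c1_g3) averaged 11.6 TPM in DG1 and 34.9 TPM in CG1.

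Autophagy genes, which build the vesicles that carry cell contents to the vacuole for breakdown, rose more broadly than any other plotted list: 14 of 21 rose and none fell, with 12 rising without DG1 replicate 1. Their summed level was 850 to 983 TPM in DG1 and 363 to 478 TPM in CG1. Members of the ATG8 family, the ubiquitin-like proteins that coat the vesicle membrane, included ATG8E (DN17418_c1_g2), with 253, 192 and 221 TPM in DG1, against 100, 67.7 and 50.5 TPM in CG1 (log2 fold change 1.5 ± 0.2, adjusted p = 0.00149). ATG8F (DN21246_c1_g1) and ATG8I (DN19823_c1_g1) rose by log2 values of 1.33 ± 0.29 and 1.31 ± 0.19. None of the 3 overlapped between the groups.

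The pathways with large shares, here and in the next paragraph, were picked for those shares, so a large share follows from the choice. Peroxisome genes of the KEGG pathway collection rose in 33 of 108 tested cases and fell in 5. Over all kept genes, which serve as the comparison for pathway groups, 10.8% rose and 12.3% fell. Many kept genes have no SwissProt hit, and over those with a land plant hit 13.0% rose and 17.6% fell. The 33 became 21 without DG1 replicate 1 or CG1 replicate 2, 18 without CG1 replicate 1 and 17 without CG1 replicate 3, and 8 fell without CG1 replicate 1. Fatty acid degradation had 22 of 70 rising (12 without CG1 replicate 3) and 2 falling, and beta-alanine metabolism had 18 of 51 rising (11 without DG1 replicate 1, 8 without CG1 replicate 3) and 2 falling. ACX4 (DN13780_c0_g2), a peroxisomal acyl-CoA oxidase for short fatty acids, averaged 172 ± 37.6 TPM in DG1 and 76.6 ± 14.5 TPM in CG1. The aldehyde dehydrogenases ALDH2B4 (DN17990_c1_g2; log2 fold change 1.70 ± 0.27) and ALDH7B4 (DN18402_c0_g2; 1.30 ± 0.21), the second of which detoxifies aldehydes in stressed Arabidopsis, rose too.

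Among the pathways of amino acid synthesis, the shares falling differed. Valine, leucine and isoleucine biosynthesis had 12 of 21 falling and 2 rising. The 12 became 6 without DG1 replicate 3 and 7 without CG1 replicate 2 or 3. Lysine biosynthesis had 7 of 17 falling and 1 rising. Phenylalanine, tyrosine and tryptophan biosynthesis had 8 of 56 falling (14.3%) and 3 rising, and arginine biosynthesis had 6 of 36 falling (16.7%) and 4 rising. Both shares falling lay between the 12.3% over all kept genes and the 17.6% over genes with a land plant hit. Diaminopimelate aminotransferase (DAP, DN17287_c1_g1), an enzyme of lysine synthesis, had 30.9, 28.4 and 25.6 TPM in DG1, against 87.2, 64.9 and 71.4 TPM in CG1 (log2 fold change -1.38 ± 0.18, adjusted p = 0.00143). Diaminopimelate decarboxylase (LYSA1, DN20745_c1_g6), which makes lysine itself, averaged 28.6 TPM in DG1 and 67.2 TPM in CG1, and ketol-acid reductoisomerase (PGAAIR, DN16132_c0_g1), shared by the branched-chain amino acids, averaged 166 TPM in DG1 and 327 TPM in CG1.

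The GO term iron ion homeostasis was likewise picked for its large share rising. Of its 16 tested genes, 10 rose and 1 fell, and the 10 became 5 without CG1 replicate 1 and 4 without CG1 replicate 3. They included ferritin-3 (DN16203_c0_g1), the plastid iron store, with 262, 178 and 144 TPM in DG1, against 96.97, 48.1 and 50.2 TPM in CG1 (log2 fold change 1.74 ± 0.33, adjusted p = 0.0056). YSL3 (DN18644_c0_g1), a transporter of metals bound to nicotianamine, had 240, 168 and 275 TPM in DG1, against 90.5, 70.3 and 94.6 TPM in CG1.

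Chlorophyll synthesis fell while part of chlorophyll breakdown rose. Of 19 genes of chlorophyll synthesis, 11 fell and none rose, and the 11 became 7 without CG1 replicate 3. Protochlorophyllide reductase (DN17466_c0_g1), the light-dependent step, had 7.37, 83.4 and 55.6 TPM in DG1, against 341, 315 and 363 TPM in CG1 (log2 fold change -2.78 ± 0.68, adjusted p = 0.0158). Uroporphyrinogen decarboxylase (DN16815_c0_g2), an earlier enzyme of tetrapyrrole synthesis, had 35.0, 59.0 and 46.2 TPM in DG1, against 166, 224 and 217 TPM in CG1. Porphobilinogen deaminase (HEMC, DN17531_c1_g2) and glutamate-1-semialdehyde aminomutase (GSA, DN18604_c0_g2) fell by 1.57 ± 0.28 and 1.30 ± 0.27 on the log2 scale. DG1 replicate 1 was the lowest library in all 4 genes, and each kept its call without it.

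Of 15 genes of chlorophyll breakdown and senescence, 5 rose and 2 fell, and the 5 became 3 without DG1 replicate 2 or 3, CG1 replicate 2 or 3 or CW1 replicate 2. Pheophytinase (PPH, DN14876_c1_g1), which removes the phytol tail, had 100, 57.9 and 60.1 TPM in DG1, against 10.2, 16.7 and 14.1 TPM in CG1 (log2 fold change 2.35 ± 0.39, adjusted p = 0.00308). Pheophorbide a oxygenase (PAO, DN14565_c0_g1), which opens the chlorophyll ring, had 59.98, 46.8 and 59.98 TPM in DG1, against 17.97, 23.8 and 19.3 TPM in CG1. The chlorophyll b reductase NOL (DN20281_c0_g1) fell to 9.39 ± 3.51 TPM in DG1, against 28.7 ± 5.67 TPM in CG1.

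Genes for light harvesting and the photosystems fell in 5 of 72 cases and none rose, below the share over all genes. The 5 became 3 without DG1 replicate 1 and 2 without DG1 replicate 3. Their summed level was 19897 TPM in DG1 replicate 1, and 116294 and 97642 TPM in the other DG1 libraries, against 71527, 126407 and 118011 TPM in CG1. The low sum of DG1 replicate 1 moved with its high share of left-out rows, and the part of either in the other was not tested. The antenna protein gene CAB13 (DN16342_c0_g1) stood out with 2.55, 71.2 and 52.3 TPM in DG1, against 635, 487 and 650 TPM in CG1, but its call was lost without DG1 replicate 3 (adjusted p = 0.054).

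Ribosomal protein genes fell as a block. Of 177 tested genes for cytosolic ribosomal proteins, 144 fell and 1 rose, with a median log2 fold change of -1.28, and 138 fell without DG1 replicate 1. They summed to 23800, 18301 and 17855 TPM in the DG1 libraries, against 62873, 39386 and 43279 TPM in the CG1 libraries. RPS19C (DN20347_c1_g4), a small subunit protein, had 354, 319 and 322 TPM in DG1, against 1287, 744 and 793 TPM in CG1 (log2 fold change -1.52 ± 0.25, adjusted p = 0.00332). RPL38A (DN15762_c1_g2), a large subunit protein, averaged 378 ± 77 TPM in DG1 and 900 ± 104 TPM in CG1. For the plastid ribosome, 32 of 50 tested genes fell and none rose, but leaving out DG1 replicate 1 or CG1 replicate 3 gave 18, DG1 replicate 3 gave 19 and CG1 replicate 2 gave 15. Their sum was 3300 to 7075 TPM in DG1 and 10369 to 14433 TPM in CG1. RPL17 (DN17157_c0_g1) of that list had 159, 346 and 312 TPM in DG1, against 545, 795 and 853 TPM in CG1, and its call was lost without CG1 replicate 2 or 3.

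**Figure D3:**
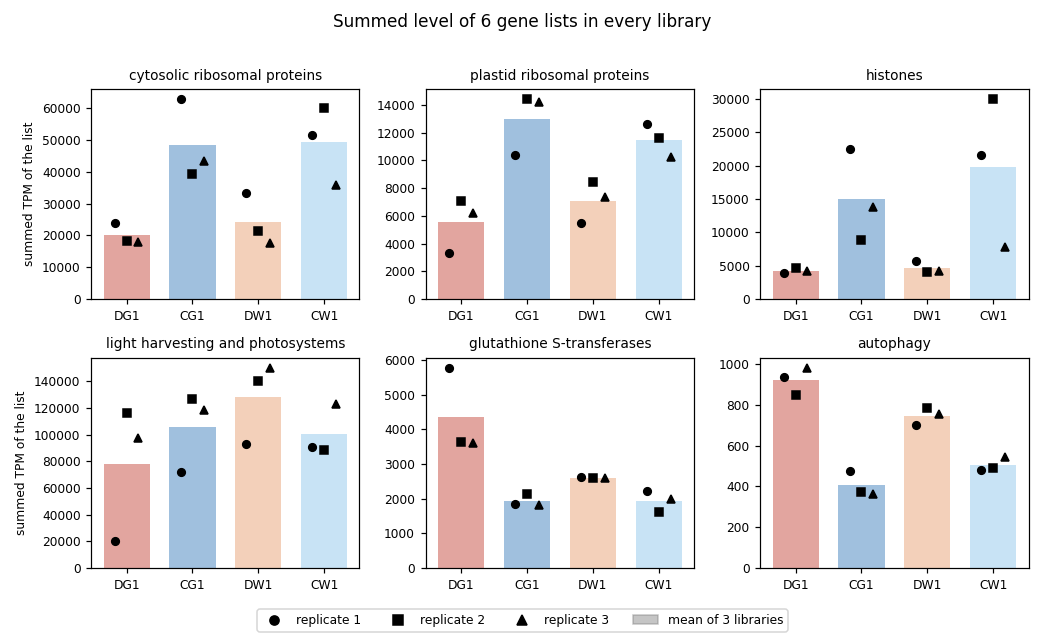
Summed TPM of 6 gene lists in each of the 12 libraries, with DG1 and CG1 on the left and DW1 and CW1 on the right of each panel, 1 symbol per replicate and a bar at the mean of 3 libraries. Cytosolic ribosomal proteins reach 23800 TPM at most in DG1 and at least 39386 TPM in CG1, and DG1 replicate 1 alone has 19897 TPM of photosystem genes.

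The genes of dividing cells fell with the ribosomal proteins. Of 86 tested kinesins and tubulins, 59 fell and 1 rose (38 fell without DG1 replicate 3), of 25 DNA replication genes 15 fell and none rose (9 fell without DG1 replicate 3), and of 64 cyclins and cell cycle kinases 30 fell and 3 rose (18 fell without DG1 replicate 3). CDKB2-2 (DN13910_c0_g1), a kinase made around mitosis, had 2.52, 1.58 and 1.28 TPM in DG1, against 108, 38.6 and 57.6 TPM in CG1 (log2 fold change -5.34 ± 1.00, adjusted p = 0.00504). A histone H3.2 gene (DN14452_c0_g1) had 41.6, 40.8 and 23.1 TPM in DG1, against 1384, 420 and 764 TPM in CG1. In both genes CG1 replicate 1 was the highest library, and the groups were far apart. An alpha-tubulin gene (DN17190_c0_g1) fell to 339 ± 66.7 TPM in DG1, against 1337 ± 385 TPM in CG1. Among the 3 genes of the cyclin list that rose was KRP4 (DN14642_c1_g2), an inhibitor of cyclin-dependent kinases, at 41.8 ± 1.2 TPM in DG1 and 22.4 ± 10.0 TPM in CG1.

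Leaf growth regulators of the TCP, KANADI, GRF and YABBY families fell in 11 of 37 cases and rose in 2. The 11 became 6 without DG1 replicate 1, CG1 replicate 1 or CG1 replicate 3, 5 without DG1 replicate 3 and 7 without CW1 replicate 1. YABBY 1 (DN15273_c1_g4), which marks the lower side of young leaves, had 4.87, 19.1 and 12.4 TPM in DG1, against 134, 48.4 and 72.4 TPM in CG1. Growth-regulating factor 1 (DN17951_c0_g1), a promoter of cell number in leaves, had 0.37, 2.54 and 1.52 TPM in DG1, against 51.2, 8.54 and 17.0 TPM in CG1. Both fell in every fit with a library left out. KAN4 (DN15527_c1_g3) had 0.25, 0.78 and 0.64 TPM in DG1, against 7.26, 4.59 and 3.39 TPM in CG1 (log2 fold change -3.11 ± 0.73, adjusted p = 0.0131). A pair of genes that in Arabidopsis act at the start of the stomatal lineage were close to 0 under drought: SPEECHLESS (DN19192_c0_g1) had 0.04, 0 and 0.03 TPM in DG1, against 4.97, 1.03 and 2.98 TPM in CG1, and TOO MANY MOUTHS (DN14349_c0_g3) had 0, 0.10 and 0 TPM in DG1, against 5.72, 1.25 and 3.25 TPM in CG1. Both passed the test (adjusted p = 0.0032 and 0.00576). The whole list of guard cell and epidermis markers had 3 of 16 rising and 2 falling and summed to 363 to 399 TPM in DG1 and 230 to 337 TPM in CG1.

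The cell wall and plasmodesmata lists fell in part. Of 42 expansins and xyloglucan enzymes, which loosen growing walls, 16 fell and 3 rose, and the 3 became 0 without DG1 replicate 1 or CG1 replicate 3 and 1 without CG1 replicate 2. Of 133 cellulose and pectin enzymes 44 fell and 6 rose, with 26 falling without DG1 replicate 3 and 29 without CG1 replicate 2. XTH9 (DN14765_c1_g1), which cuts and rejoins xyloglucan chains, had 2.54, 14.2 and 5.38 TPM in DG1, against 255, 97.8 and 149 TPM in CG1. Of 55 beta-1,3-glucanases and callose genes, which set how open the channels between cells are, 25 fell and 4 rose, and the 4 became 2 without DG1 replicate 1 or 3, CG1 replicate 3 or CW1 replicate 2. Callose synthases moved both ways: CALS1 (DN16026_c0_g4) averaged 3.92 ± 1.04 TPM in DG1 and 62.6 ± 29.0 TPM in CG1, and CALS2 (DN16838_c0_g2) had 34.8, 25.3 and 31.6 TPM in DG1, against 11.2, 10.2 and 10.2 TPM in CG1 (log2 fold change of 1.56 ± 0.18, adjusted p = 0.000913). The callose-binding protein PDCB2 (DN17272_c0_g1), found at plasmodesmata in Arabidopsis, fell to 9.26 TPM in DG1, against 151 TPM in CG1.

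Of 78 cuticular wax and cutin genes 7 rose (8.97%) and 17 fell (21.8%), and the 7 became 4 without DG1 replicate 1, CG1 replicate 2 or CG1 replicate 3. CUT1 (DN13077_c0_g8), the enzyme that elongates very long fatty acids for wax, had 102, 52.1 and 46.8 TPM in DG1, against 9.96, 8.78 and 9.96 TPM in CG1 (log2 fold change 2.81 ± 0.39, adjusted p = 0.00175). CER26L (DN18195_c1_g2), named for a further elongation factor of wax synthesis, and the GDSL lipase At5g45950 (DN13477_c1_g3) rose by log2 values of 3.00 ± 0.58 and 3.12 ± 0.34, and the GDSL lipase APG (DN14726_c0_g4) fell to 22.1 ± 19.1 TPM in DG1, against 211 ± 36.7 TPM in CG1. Lipid transfer proteins, small secreted carriers, rose in 2 of 16 cases (12.5%). One of them, LTP2 (DN16728_c0_g7), rose to a high level, with 5927, 3405 and 2608 TPM in DG1, against 210, 25.5 and 45.9 TPM in CG1 (log2 fold change of 5.55 ± 1.15, adjusted p = 0.00783). The groups did not overlap, although the 3 CG1 levels differed widely among themselves.

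Of 62 lignin and phenylpropanoid enzymes 10 rose (16.1%) and 4 fell (6.45%), and the 10 became 5 without CG1 replicate 3. Cinnamoyl-CoA reductase (CCR1, DN19420_c1_g1), the first enzyme of the lignin branch, had 434, 297 and 391 TPM in DG1, against 117, 134 and 128 TPM in CG1 (log2 fold change 1.53 ± 0.27, adjusted p = 0.0039). Cinnamate 4-hydroxylase (CYP73A1, DN16278_c1_g1), an early enzyme shared by the branches, averaged 251 ± 129 TPM in DG1 and 97.3 ± 8.63 TPM in CG1. Hydroxycinnamoyltransferase (HST), which directs flux to lignin and chlorogenic acid, was represented by DN17978_c0_g1, with a log2 fold change of 1.53 ± 0.26, and by DN14056_c0_g1, which had 113, 43.0 and 37.6 TPM in DG1, against 8.38, 17.5 and 11.4 TPM in CG1. Of 35 flavonoid enzymes 7 rose and none fell, and the 7 became 4 without DG1 replicate 3 and 3 without CG1 replicate 3. The flavonoid 3'-hydroxylase gene CYP75B2 (DN21526_c1_g1) averaged 174 ± 60.7 TPM in DG1 and 50 ± 8.39 TPM in CG1, and the dihydroflavonol reductase gene A1 (DN15858_c0_g1) 113 ± 26.4 TPM in DG1 and 39.1 ± 8.47 TPM in CG1. Chalcone synthase (CHS, DN12851_c1_g4), the entry enzyme, had 3356, 2143 and 1744 TPM in DG1, against 308, 995 and 800 TPM in CG1, and passed the test (adjusted p = 0.0409) only until any of 8 libraries was left out.

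The study designed primer pairs for quantitative PCR on 15 genes, and the pairs for 4 genes described above are shown because they fix which stretch of each assembled transcript a reader could measure again. They run 5′ to 3′ in lower case, as given in the study's primer list, with no base set apart by capitals.
SS4 forward: tgaccccagattcaggcatt
SS4 reverse: accatcccacgaaaagtcct
PRP1 forward: gaagattcctgtgttggtgca
PRP1 reverse: tcgggtaagattgaaggccc
HST forward: ctcgggttttgaaagaggcc
HST reverse: gctcaggcgaaggtgtaaag
KAN4 forward: gccatgaaagagcaacacca
KAN4 reverse: cagatccaccaccctcaact
The HST pair belongs to DN14056_c0_g1. The primers are 20 or 21 bases long with 47.6% to 55.0% G and C.

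Regulators of the heat response and of the clock were also among the genes that rose. Of 59 heat shock protein genes 21 rose (35.6%) and 5 fell (8.47%). With a G1 library left out, 15 to 21 rose and 1 to 5 fell. The heat stress factor HSFA2E (DN20919_c0_g3), which switches on chaperone genes, had 88.8, 59.3 and 55.2 TPM in DG1, against 3.08, 2.94 and 3.37 TPM in CG1 (log2 fold change of 4.31 ± 0.43, adjusted p = 0.000755). The gene annotated MED37C (DN14403_c0_g2), a chaperone of the HSP70 family, averaged 133 ± 44.4 TPM in DG1 and 13.2 ± 3.10 TPM in CG1. Of 15 circadian clock genes 6 rose and none fell, and the 6 became 3 without DG1 replicate 2 and 2 without DG1 replicate 3, CG1 replicate 2 or CG1 replicate 3. REVEILLE 1 (RVE1, DN17691_c0_g1), a clock-controlled MYB-like factor, had 60.8, 83.4 and 93.2 TPM in DG1, against 34.1, 17.4 and 18.9 TPM in CG1 (log2 fold change 1.72 ± 0.22, adjusted p = 0.00139). PIF3 (DN18739_c1_g5), a partner of phytochrome, had 56.8, 62.1 and 75.9 TPM in DG1, against 21.8, 14.1 and 19.1 TPM in CG1, and bHLH80 (DN18631_c1_g4) rose by a log2 value of 2.23 ± 0.29.

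Ethylene genes rose in 15 of 34 cases and none fell, but 7 rose without CG1 replicate 3. CTR1 (DN15997_c1_g5), a kinase that represses the ethylene response, had 57.8, 66.6 and 33.0 TPM in DG1, against 16.2, 15.7 and 18.4 TPM in CG1 (log2 fold change 1.66 ± 0.30, adjusted p = 0.00477). Among cytokinin, gibberellin and brassinosteroid genes, more fell than rose, with 14 of 57 falling (24.6%) and 8 rising (14.0%). Leaving out DG1 replicate 3 gave 4 falling, DG1 replicate 2 gave 9, and DG1 replicate 1, CG1 replicate 2 or CG1 replicate 3 gave 8, while the 8 rising became 4 without DG1 replicate 3 and 5 when DG1 replicate 2, CG1 replicate 2 or CG1 replicate 3 was dropped. The gibberellin-regulated gene GASA14 (DN21077_c0_g4) fell to 0.06, 2.08 and 0.32 TPM in DG1, against 285, 127 and 86.8 TPM in CG1, and its call was lost without DG1 replicate 1 or 3. CIGR1 (DN18391_c0_g6), a gibberellin-responsive gene in rice, had 16.7, 17.98 and 16.5 TPM in DG1, against 23.03, 180 and 139 TPM in CG1 (log2 fold change -2.84 ± 0.61). Auxin genes were near the shares over all genes, with 11 of 97 rising (11.3%) and 16 falling (16.5%), and the 11 became 7 without CG1 replicate 2 or 3 and the 16 became 10 without CG1 replicate 3. They included the auxin-responsive gene SAUR32 (DN17388_c0_g1), which rose by a log2 value of 1.81 ± 0.25, and the auxin carrier LAX3 (DN13544_c0_g3), which fell by 1.59 ± 0.38.

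Cytokinin genes that rose were adenylate isopentenyltransferase 5 (IPT5, DN15742_c0_g3), the first enzyme of synthesis, at 12.9 ± 2.27 TPM in DG1 and 2.96 ± 0.723 TPM in CG1, and LOG5 (DN16498_c2_g1), which releases the active hormone, at 130 ± 44.3 TPM in DG1 and 28.6 ± 7.86 TPM in CG1. The gibberellin receptor GID1B (DN19761_c1_g2) had 106, 32.7 and 40.6 TPM in DG1, against 13.2, 5.73 and 8.66 TPM in CG1. The carotenoid cleavage enzyme CCD1 (DN21184_c2_g1) had 291, 392.03 and 479 TPM in DG1, against 107, 117 and 101 TPM in CG1 (log2 fold change 2.07 ± 0.32, adjusted p = 0.00248).

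AP2/ERF factors fell in 22 of 75 cases and rose in 10, with a median log2 fold change of -1.07, and WRKY factors fell in 10 of 45 cases and rose in 7. The AP2/ERF counts held within 1.5 times whichever library was left out. The falling WRKY count was 3 without DG1 replicate 2, DG1 replicate 3 or CG1 replicate 2 and 5 without CG1 replicate 3, and the rising count was 4 without DG1 replicate 3 and 3 without DG1 replicate 1, CG1 replicate 2 or CG1 replicate 3. Several falling regulators shared a pattern that was picked out after their values were seen: they were high in CG1 and low in the other 3 groups. WRKY40 (DN12996_c0_g2), a factor induced by pathogens and ABA in Arabidopsis, had 28.9, 14.9 and 23.8 TPM in DG1, against 68.5, 514 and 450 TPM in CG1, and averaged 13.8 TPM in DW1 and 14.4 TPM in CW1. ERF5 (DN21205_c0_g5), an ethylene response factor, had 29.4, 16.3 and 19.2 TPM in DG1, against 164, 291 and 275 TPM in CG1, and averaged 11.5 TPM in DW1 and 27.4 TPM in CW1. TIFY11B (DN20870_c0_g1), a repressor of jasmonate responses, had 14.96, 11.02 and 6.54 TPM in DG1, against 20.8, 450 and 334 TPM in CG1. In all 3 genes CG1 replicate 1 was the lowest CG1 library, yet still above every DG1 library.

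Other genes are described here only as high in CG1 and low in DG1, without their W1 levels. They were MYB44 (DN18380_c0_g2), a stress-induced factor in Arabidopsis, with means of 0.34 TPM in DG1 and 40.5 TPM in CG1, and the gibberellin-inactivating enzyme GA2OX1 (DN16134_c0_g3), with 4.76 TPM in DG1 and 94.5 TPM in CG1. The desaturase gene DES8.11 (DN19175_c0_g4) averaged 7.23 TPM in DG1 and 190 TPM in CG1. The xyloglucan enzyme gene XTH16 (DN15881_c0_g2) averaged 3.36 TPM in DG1 and 187 TPM in CG1, and the gene annotated ALP1-like (DN20045_c1_g1), from a family derived from transposases, 2.65 TPM in DG1 and 108 TPM in CG1. All of these kept their call whichever library was left out. The jasmonate synthesis gene OPR3 (DN18527_c0_g1), by contrast, had 18, 16.4 and 15.8 TPM in DG1, against 15.96, 278 and 152 TPM in CG1, so that the groups overlapped, and its call was lost without DG1 replicate 3 or CG1 replicate 2. WRKY22 (DN20753_c1_g3) overlapped as well. WRKY22 and the kinase gene ANP2 (DN981_c0_g1) lost their calls without DG1 replicate 2 or 3 or CG1 replicate 2 or 3. Over the list of jasmonate synthesis and signalling, 7 of 49 tested genes rose (14.3%) and 4 fell (8.16%). With a G1 library left out, 2 to 6 of that list rose and 1 to 8 fell.

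**Figure D4:**
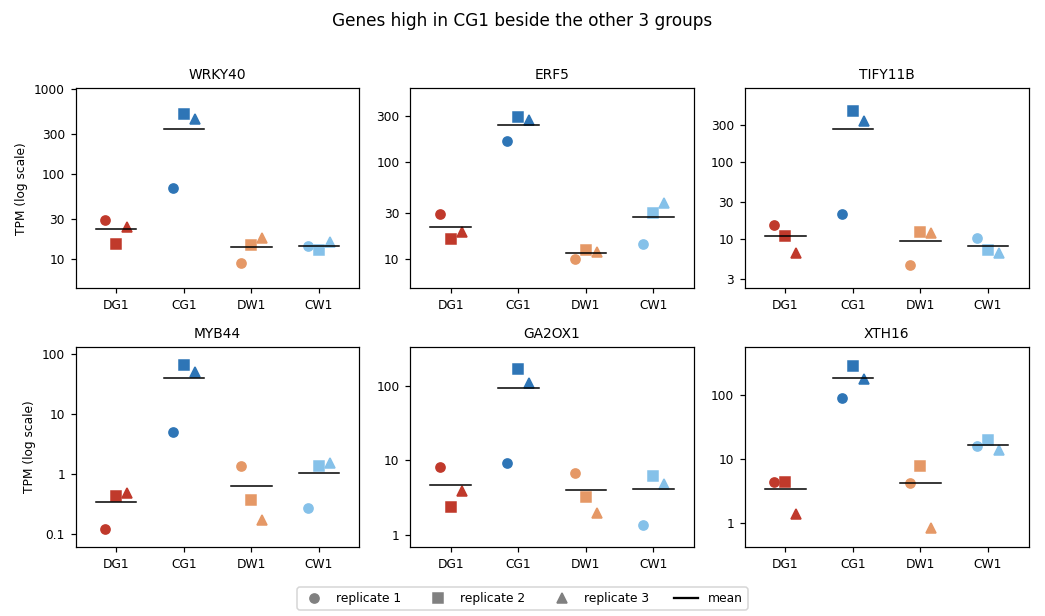
Level of 6 genes in all 12 libraries, in TPM on a log scale, with DG1 left of CG1 and DW1 left of CW1, 1 symbol per replicate and a line at the mean. All 3 CG1 libraries lie above the DG1 libraries in each gene, and CG1 replicate 1 (circle) is the lowest of the 3 CG1 libraries, for TIFY11B at 20.8 TPM against 450 and 334 TPM.

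Over all genes that fell, 232 of 2258 (10.3%) had their 3 CG1 levels above all 6 levels in W1, against 411 of all 12823 tested (3.21%), and 618 (27.4%) had their 3 DG1 levels below all 6, against 1117 (8.71%) of all tested. Of the 1665 that rose, 330 (19.8%) had CG1 levels below all of W1, against 594 (4.63%) of all tested, and 389 (23.4%) had DG1 levels above all of W1, against 603 (4.7%). Choosing genes by their difference between DG1 and CG1 favours extreme levels in either group, so these shares are a description only.

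The same comparison in W1 (DW1 against CW1) called 135 rising and 167 falling genes with a land plant hit (1.05% and 1.3%, 2.36% in all), of which 132 and 159 were called in the same way in G1. Of the 1665 rising genes of G1, 1597 (95.9%) had a positive log2 fold change in W1, and of the 2258 falling genes 2132 (94.4%) had a negative one. How often the signs matched over all tested genes was not counted, so these shares are a description only. The median log2 fold change in W1 over all tested genes with a land plant hit was -0.0465. The median log2 fold change of the rising genes was 1.26 in G1 and 0.61 in W1, and that of the falling genes -1.55 in G1 and -0.77 in W1, where the G1 values are larger partly through the choice of genes on G1. XERICO rose by a log2 value of 3.90 ± 0.27 in G1 and 2.21 in W1, sucrose synthase 2 by 2.49 ± 0.36 in G1 and 2.39 in W1, and PP2C 24 by 4.39 ± 0.39 in G1 and 3.19 in W1, all called in both cultivars. CUT1 rose by 2.81 ± 0.39 in G1, while its log2 fold change of 0.87 in W1 did not pass (adjusted p = 0.203), and CCR1 had 1.53 ± 0.27 in G1 and 0.32 in W1 (adjusted p = 0.523). The edgeR test of the difference between the cultivars called neither (adjusted p = 0.38 for CUT1 and 0.386 for CCR1). DESeq2 with all libraries called CUT1 (adjusted p = 0.0498) and not CCR1 (adjusted p = 0.103).

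The edgeR test of that difference (interaction) called 4 of 27132 kept genes (0.0147%), all with a lower log2 fold change in G1. Of these, 1 had a land plant hit (0.0078% of those tested), and none was among the 114 genes chosen from the rule for description here. At an unadjusted p under 0.05 the edgeR test found 2555 genes (9.42%), and DESeq2 called 356, 117 of them higher in G1 and 239 lower. Without CG1 replicate 1 edgeR called 299, with 37 higher and 262 lower, and 13 of the 114 described genes were among them. Without DG1 replicate 2, CG1 replicate 2, CG1 replicate 3 or any CW1 library it called none, and without DW1 replicate 2 it called 2. For WRKY40 the difference between the cultivars was -4.07 ± 0.99 on the log2 scale with all libraries (adjusted p = 0.376), and leaving out CG1 replicate 1 gave -4.60 (adjusted p = 0.00508). For TIFY11B it was -5.12 ± 1.25 (adjusted p = 0.376) and -5.69 without that library (adjusted p = 0.00508), and for PYL9 1.5 ± 0.48 (adjusted p = 0.41) and 1.97 (adjusted p = 0.0498). By DESeq2 with all libraries the adjusted p was 0.00677 for WRKY40, 0.00318 for TIFY11B and 0.119 for PYL9. Among the described genes DESeq2 also called, as higher in G1, XERICO, IPT5, At5g45950, ATHB-54, CER26L, CUT1 and the UBI11 genes DN19706_c2_g7 and DN13391_c0_g1. Their adjusted p was 0.00104 to 0.0498. As lower in G1 it further called MYB44, DES8.11, ANP2, XTH16, ERF5, GA2OX1, CIGR1, DN20833_c0_g2 and DN20045_c1_g1, with adjusted p of 1.84e-09 to 0.0413.

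**Figure D5:**
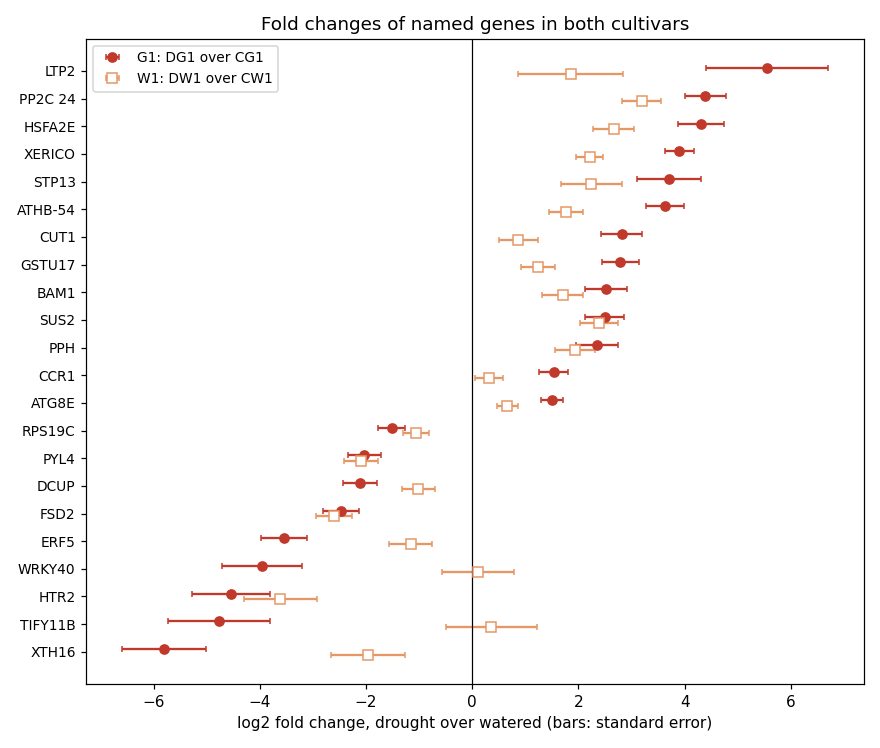
Log2 fold change of 22 named genes, drought over watered, in G1 (filled circles) and in W1 (open squares), with bars of 1 standard error. In 20 of the genes the sign is the same in both cultivars, and WRKY40 and TIFY11B, with values of 0.11 and 0.36 in W1, are the others.

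Some of the usual reference genes were not steady. Of 51 housekeeping genes tested 10 rose (19.6%), 13 fell (25.5%) and 28 did not pass, against 13.0% rising and 17.6% falling over all genes. The 13 became 7 without DG1 replicate 3 and 8 without CG1 replicate 2 or 3. A polyubiquitin gene annotated UBI11 (DN19102_c0_g1), a common choice for normalization, had 2522, 2056 and 2303 TPM in DG1, against 1507, 601 and 629 TPM in CG1 (log2 fold change 1.43 ± 0.29, adjusted p = 0.007), and DN19706_c2_g7, DN13391_c0_g1 and DN19706_c2_g2 of the same name rose by log2 values of 1.71 ± 0.23, 1.64 ± 0.24 and 1.24 ± 0.22. Actin-11 (DN13822_c0_g1), a cytoskeleton gene, had 28.2, 46.3 and 47.9 TPM in DG1, against 139, 124 and 135 TPM in CG1 (log2 fold change -1.71 ± 0.23, adjusted p = 0.00149). All 5 genes kept their call with any library left out. Markers of other tissues were also counted. Root markers rose in 7 and fell in 6 of 36 cases, with sums of 668 to 748 TPM in DG1 and 421 to 718 TPM in CG1. Vascular and secondary wall markers fell in 4 of 10 cases, with sums of 169 to 372 TPM in DG1 and 583 to 661 TPM in CG1, and the 4 became 2, 1 or 0 when DG1 replicate 1 or 3, any CG1 library, CW1 replicate 2 or DW1 replicate 2 was left out. No gene of these lists was at 0 in all 6 libraries, and the part of cell composition in the results above was not tested.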

How the data were processed

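RNA of leaves was sequenced in 12 libraries, 3 per group. The authors assembled the reads without a genome (Trinity), and deposited expected counts per assembled gene (RSEM) with TPM values and annotations. A mouse genome build in the labels was not used. Members and gene lists were chosen with earlier results of these data known. Rows whose SwissProt species is no land plant were dropped after the fit. Expected counts were rounded and tested with edgeR 4.0.16 (R 4.3.3): filterByExpr, TMM scaling, a quasi-likelihood F test on all 12 libraries with a mean per group, and Benjamini-Hochberg adjustment over all 29168 tested rows, with an adjusted p under 0.05 as the threshold. DEGs also needed a fold change of 4 or more. TPM served for description. The alternatives were DESeq2 1.42.0, RLE scaling, no filter, the 6 G1 libraries alone, other-species rows removed first, a replicate block, limma 3.58.1 on log2(TPM + 1), an adjusted p under 0.005, and leaving out each library. The test was checked on simulated counts. Genes were named by rule: smallest adjusted p without overlap, the highest TPM among called genes of each list, pathway or GO term, and the study's primer and factor lists. For that rule, pathways and GO terms were those with the largest shares rising or falling. The sequenced total limits precision of low genes, for which TPM near 0 rest on few reads.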

Additional observations from a re-analysis of the deposited data

Results flagged for a closer look

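The drought effect of G1 differed from that of W1 in 4 genes by the interaction test. DN20045_c1_g2, which carries a transposase-derived domain and has no SwissProt hit, had a difference of -5.99 ± 0.61 on the log2 scale (adjusted p = 0.023 by edgeR), with means of 1.73 TPM in DG1 and 24.7 TPM in CG1, and 1.5 TPM in DW1 and 0.35 TPM in CW1. DN17938_c1_g4, with a domain of unknown function, had a difference of -5.58 ± 0.69 (adjusted p = 0.0465) and means of 1.86 TPM in DG1 and 46.7 TPM in CG1. DN18318_c0_g1, without annotation, had a difference of -3.45 ± 0.39 (adjusted p = 0.023) in the counts, but TPM means of 16.3 in DG1 and 26.3 in CG1, and of 36.0 in DW1 and 33.9 in CW1. Its TPM in DG1 replicate 1 (27.36) lay above all 3 CG1 libraries, and limma on log2(TPM + 1) gave an adjusted p of 0.672. The xyloglucan enzyme gene DN13462_c0_g3 had a difference of -2.94 ± 0.33 (adjusted p = 0.023). None of the 4 was called with the replicate block, at which their adjusted p was 0.083, 0.0963, 0.065 and 0.0963 for DN20045_c1_g2, DN17938_c1_g4, DN18318_c0_g1 and DN13462_c0_g3. The rows left out for a best hit outside land plants took 9.2% of the TPM of DG1 replicate 1, above the 3.55% to 4.82% of the CG1 libraries.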

How the results depend on the processing

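With all libraries 6254 kept genes were called in G1, and the other tools, scalings, filters and sample sets called totals of 4726 to 8215. The total was 1295 at an adjusted p under 0.005, and 3674 to 6478 with a library left out, at its lowest without CG1 replicate 3 (3674) and DG1 replicate 3 (3941). The total with a change of 4-fold or more was 2315, and it was 1268 by limma on log2(TPM + 1), 610 at an adjusted p under 0.005 and 1601 to 2506 with a library left out. The interaction test called 4 genes, against 356 by DESeq2, 11 by limma, 0 with the replicate block, 0 at an adjusted p under 0.005 and 0 to 299 with a library left out. The share rising among called genes was 46.7%, and 40.3% to 51.1% with a library left out. Of the 114 described genes 105 or more kept their call under every tool, scaling and sample set. With any 1 library left out 107 or more kept it, and none reversed. These genes were chosen from called ones, some by a rule that required the call without DG1 replicate 1, so high shares follow from the choice. Over all called genes with a land plant hit, 64.1% of the rising and 69.7% of the falling kept their call without that library. Deviations of same-numbered DG1 and CG1 libraries correlated at r = 0.078, 0.007 and 0.104, and those of the other pairs at -0.109 to 0.052. With so few libraries these values cannot decide whether the numbers pair them. The replicate block called 5710 genes and 2082 of 4-fold or more. Depth limits genes near 0 TPM.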

Other observations

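Further gene groups are read against the 13.0% that rose and 17.6% that fell over all tested genes with a land plant hit. Receptor-like kinases, the largest list, had 54 of 516 rising and 84 falling in DG1 against CG1, with a median log2 fold change of 0.01. The rising count ranged from 17 (without CG1 replicate 3) to 46 and the falling count from 50 (without DG1 replicate 3) to 81 when a G1 library was left out. Disease resistance proteins had 6 of 99 rising and 5 falling, and the 6 became 3 without CG1 replicate 3, while the 5 became 3 without DG1 replicate 1, DG1 replicate 3 or CG1 replicate 2. Carotenoid enzymes had 3 of 21 rising and none falling, with 3 to 4 rising in every fit with a G1 library left out. Aquaporins, the water channels of cell membranes, summed to 1889 to 2194 TPM in DG1 and 2768 to 5507 TPM in CG1, without overlap. Of their 28 tested genes 5 fell and 2 rose, but the 5 became 11 without DW1 replicate 1 and 0 without DG1 replicate 3, with 2 or 3 falling without DG1 replicate 1, CW1 replicate 2 or 3 or any CG1 library. Nitrogen assimilation had 6 of 22 rising (27.3%) and 1 falling, and the 6 became 0 without DG1 replicate 1 or CG1 replicate 3 and 2 without DG1 replicate 3, CG1 replicate 1 or CG1 replicate 2.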
